A study of Mus musculus with 13 samples.

Results

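The 10 genes described here mark the GABA-releasing interneurons of the cerebral cortex: Gad1, Gad2, Slc32a1, Lhx6, Pvalb, Calb2, Sst, Npy, Vip and Cck. They are listed by name under a rule that uses no measured value, although the list was drawn up with earlier results of these data known, and all 10 were found among the 48795 genes of the count table and were tested in every comparison. Cortical interneurons arise in the ventral forebrain and migrate into the cortex, whereas the Cre driver of the mutant mice, NEX-Cre, is an allele of Neurod6 that is active in the precursors of the glutamatergic pyramidal neurons of cortex and hippocampus. Interneurons themselves are therefore a lineage outside the cells that were engineered, although some of the 10 genes are also expressed within that lineage.

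The RNA came from the right brain hemisphere, without olfactory bulb and cerebellum, of mice at postnatal day 11. In the 5 nlsYAP5SA mice (NexCre +/-, YAP5SAnls +/-), Cre switched on a transgene for a YAP1 that stays active in the nucleus. The 5 control littermates (NexCre -/-, YAP5SAnls +/-) carried the same transgene without Cre, and 3 C57BL/6 wild-type mice of that age carried neither and were not littermates. The 2 matings behind the littermates and the sex of the mice are not assigned to samples in the labels. Each library is a different mouse, and the libraries held 20871566 to 25524349 estimated gene counts.

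GABA is the main inhibitory transmitter of the forebrain. It is made by 2 decarboxylases, GAD67 (Gad1) and GAD65 (Gad2), and loaded into synaptic vesicles by the transporter VGAT (Slc32a1). Interneurons from the medial ganglionic eminence need the transcription factor LHX6 and become parvalbumin (Pvalb) or somatostatin (Sst) cells, while those from the caudal eminence include the cells with VIP, calretinin (Calb2) or cholecystokinin (Cck). Parvalbumin is a calcium buffer of fast-spiking cells, and its transcript comes on late, during the postnatal weeks. None of these genes is confined to cortical interneurons: striatal and thalamic neurons also make GABA, and Cck is also expressed by pyramidal neurons. In such bulk tissue, fewer cells of a type and less RNA per cell cannot be told apart.

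Parvalbumin and cholecystokinin transcripts were lower in nlsYAP5SA than in control hemispheres, whereas the genes that make and load GABA did not differ detectably. Pvalb stood at 0.66 of its control level and Cck at 0.826. By edgeR's quasi-likelihood test, with p-values adjusted after Benjamini and Hochberg across every gene in the fit, 2 of the 10 genes had an adjusted p of 0.05 or less, both lower, and 5 had an unadjusted p under 0.05. Across all 16315 genes tested, 10.8% were called, 3.44% lower and 7.36% higher, and 3984 had an unadjusted p under 0.05. The median log2 fold change was -0.15 for the 10 genes and -0.01 for all genes. With so few genes these shares do not set the list apart. The 2 calls were fragile, since by edgeR both were lost when all 13 mice shared a single fit (0 genes called, 4 at an unadjusted p under 0.05) and when the level of Y-linked transcripts was added to the model, whereas DESeq2 called 3, with Npy as the third.

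A promoter window of each called gene is shown with that of Sst, the member whose window holds a cAMP response element. Each runs 5′ to 3′ from 250 bases before to 50 bases after a RefSeq transcription start on GRCm38.p6, and capitals mark that element. All 3 genes lie on the minus strand: Pvalb at chr15:78206351-78206650, Cck at chr9:121495645-121495944 and Sst at chr16:23890795-23891094.
Pvalb: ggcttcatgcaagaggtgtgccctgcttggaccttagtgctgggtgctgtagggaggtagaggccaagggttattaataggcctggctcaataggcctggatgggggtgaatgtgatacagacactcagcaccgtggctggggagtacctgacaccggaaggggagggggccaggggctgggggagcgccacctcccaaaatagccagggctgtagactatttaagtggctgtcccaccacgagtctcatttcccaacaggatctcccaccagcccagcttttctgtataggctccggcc
Cck: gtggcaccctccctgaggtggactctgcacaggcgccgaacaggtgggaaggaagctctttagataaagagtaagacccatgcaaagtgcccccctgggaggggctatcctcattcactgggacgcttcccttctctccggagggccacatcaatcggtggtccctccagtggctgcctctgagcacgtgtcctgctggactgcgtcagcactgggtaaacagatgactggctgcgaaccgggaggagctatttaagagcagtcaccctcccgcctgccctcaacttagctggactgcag
Sst: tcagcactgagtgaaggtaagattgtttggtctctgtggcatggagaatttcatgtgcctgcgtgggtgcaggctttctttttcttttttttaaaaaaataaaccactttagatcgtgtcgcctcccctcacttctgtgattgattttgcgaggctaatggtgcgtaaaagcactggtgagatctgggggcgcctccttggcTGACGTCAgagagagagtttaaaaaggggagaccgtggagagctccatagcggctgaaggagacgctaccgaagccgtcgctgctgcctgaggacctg
Windows were found for 9 of the 10 genes, 12 in all, and none for Calb2. Pvalb has a second window, at chr15:78204188-78204487, which is not printed, and Lhx6 has 3; the Pvalb window shown is the one at the start of the annotated gene. The cAMP element, TGACGTCA, occurred in 1.79% of 32851 promoter windows, searched on both strands, and among these genes in Sst, starting at base 203 of its window. The TEAD motif CATTCC, the site through which YAP1's partner factors bind DNA, occurred in 14.7% of all windows and in Gad2 among these genes. The letters TATAAA occurred in 13.6% of all windows and in those of Gad1, Vip and Lhx6. No window of these genes held 2 of the motifs, and a match is a description, not a bound site.

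The GABA synthesis genes were abundant and steady. Gad1 (GAD67, chromosome 2, 70553072 to 70602014 on GRCm38) measured 190, 198, 217, 220 and 222 counts per 1000000 (CPM) in controls 1 to 5. In nlsYAP5SA mice 1 to 5 it measured 199, 224, 228, 217 and 227 CPM, and in C57BL/6 mice 1 to 3 205, 214 and 223 CPM. The ranges of the 3 groups overlapped, and the log2 fold change of nlsYAP5SA over control was 0.06 ± 0.06 (SE, n = 5 against 5; 95% interval -0.07 to 0.19, adjusted p = 0.57 by edgeR). Gad2 (GAD65, chromosome 2, 22622205 to 22693874) measured 207, 224, 277, 246 and 265 CPM in controls and 217, 278, 270, 256 and 275 CPM in nlsYAP5SA mice. The C57BL/6 mice had 242, 220 and 278 CPM of Gad2. Again the groups overlapped, with a log2 fold change of 0.09 ± 0.09 (interval -0.11 to 0.28, adjusted p = 0.599 by edgeR). The intervals leave room for a rise to 1.14 times control for Gad1 and 1.21 times for Gad2. Per length, the log2 ratio of Gad2 to Gad1 lay between 0.50 and 0.74 in controls, 0.50 and 0.69 in nlsYAP5SA mice and 0.41 and 0.69 in C57BL/6 mice, so the balance of the 2 enzymes' transcripts overlapped as well.

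The vesicular transporter gene Slc32a1 (VGAT, chromosome 2, 158610767 to 158615748) measured 113, 99, 95.8, 98.5 and 98.2 CPM in controls. It measured 92.1, 89.9, 103, 90.4 and 99.4 CPM in nlsYAP5SA mice and 104, 98.1 and 90.4 CPM in C57BL/6 mice. Control 1 was the high library, and the groups overlapped. The log2 fold change of nlsYAP5SA over control was -0.09 ± 0.06 (interval -0.22 to 0.05, adjusted p = 0.429 by edgeR), and it was 0.02 when libraries were scaled on pan-neuronal genes, so no direction can be given. Gad1, Gad2 and Slc32a1 were called under none of the 20 other settings tried.

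**Figure D1:**
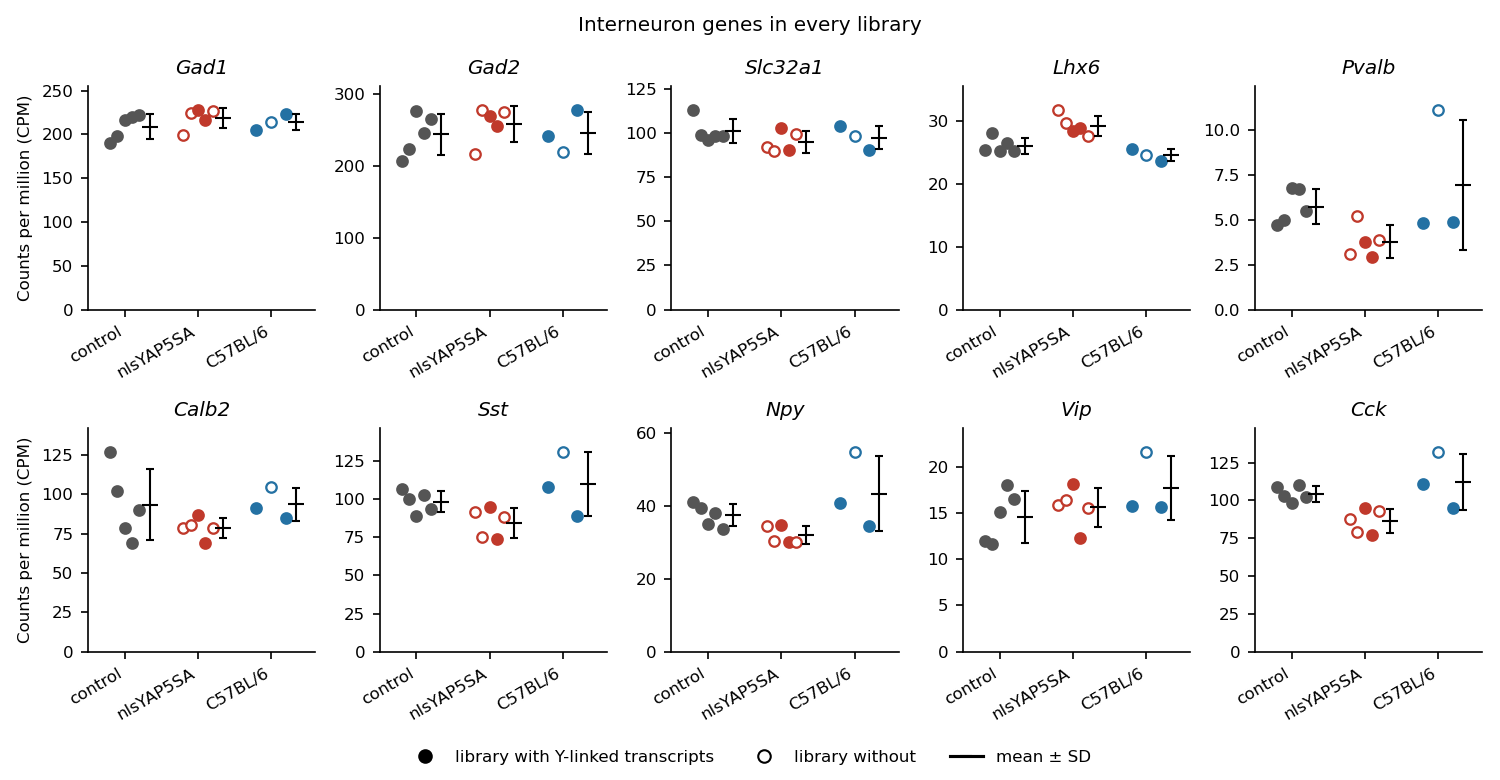
CPM of each gene (vertical axis, from 0) in every library of the 3 groups, with mean ± SD beside the points. Filled points are libraries with Y-linked transcripts and open points those without. Cck lies between 77 and 94.9 CPM in nlsYAP5SA and between 98 and 110 CPM in controls, while Pvalb overlaps through nlsYAP5SA mouse 2.

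Lhx6, the transcription factor of interneurons from the medial ganglionic eminence (chromosome 2, 36081953 to 36105408), was the member with the highest fold change. Its control values were 25.5, 28.2, 25.2, 26.6 and 25.2 CPM. The nlsYAP5SA mice had 31.8, 29.7, 28.4, 29 and 27.7 CPM, and the C57BL/6 mice 25.6, 24.7 and 23.6 CPM. Control 2, at 28.2 CPM, lay above nlsYAP5SA mouse 5 and below the other 4. Its log2 fold change was 0.16 ± 0.06 (interval 0.04 to 0.29), which did not pass the test (adjusted p = 0.0923 by edgeR). Scaled on pan-neuronal genes it was 0.27 and passed (adjusted p = 0.0274 by edgeR). Against C57BL/6 the difference was 0.24 ± 0.07 (adjusted p = 0.0789 by edgeR), and every nlsYAP5SA mouse exceeded every C57BL/6 mouse, as held for 8.71% of all genes in that comparison.

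Pvalb, the calcium buffer of fast-spiking cells (chromosome 15, 78191114 to 78206400), was the least abundant member in CPM, and it had the lowest fold change of the 10. Controls 1 to 5 had 4.7, 4.97, 6.75, 6.71 and 5.48 CPM. The nlsYAP5SA mice had 3.12, 5.22, 3.77, 2.91 and 3.88 CPM, and the C57BL/6 mice 4.79, 11.1 and 4.88 CPM. All nlsYAP5SA mice but mouse 2 lay below every control. The log2 fold change over control was -0.60 ± 0.17 (interval -0.96 to -0.24, adjusted p = 0.0356 by edgeR). This call held in 3 of the 10 fits that left out a single mouse. By edgeR the adjusted p was 0.0707, 0.0947 and 0.0589 without control 3, 4 or 5, and 0.0919, 0.0603, 0.0697 and 0.0745 without nlsYAP5SA mouse 1, 3, 4 or 5. The log2 fold change itself stayed between -0.78 and -0.49 over the 20 other settings, and 8 of them kept the call.

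Calb2, which encodes the calcium buffer calretinin (chromosome 8, 110137502 to 110168210), had the widest spread among the controls relative to its mean, with 127, 102, 78.6, 69.1 and 90 CPM. The nlsYAP5SA mice had 78.4, 80.7, 86.9, 68.8 and 78.8 CPM and the C57BL/6 mice 91.3, 105 and 84.7 CPM. All nlsYAP5SA values fell within the control range but for mouse 4, just below it. Its log2 fold change of -0.25 ± 0.14 did not pass (interval -0.55 to 0.05, adjusted p = 0.303 by edgeR), and it was -0.11 without control 1.

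Among the peptide genes, Cck (cholecystokinin, chromosome 9, 121489824 to 121495694) separated the littermate groups. Controls had 109, 103, 98, 110 and 102 CPM, nlsYAP5SA mice 87.4, 79.4, 94.9, 77 and 93 CPM, and C57BL/6 mice 111, 132 and 94.7 CPM. Every nlsYAP5SA value lay below every control value, which held for 3.57% of all genes tested, while the reverse order held for 6.49%. Against C57BL/6 the ranges overlapped narrowly, since nlsYAP5SA mouse 3 exceeded C57BL/6 mouse 3. The log2 fold change over control was -0.28 ± 0.07 (interval -0.42 to -0.13, adjusted p = 0.0186 by edgeR). The call was lost without control 4 (adjusted p = 0.0563 by edgeR) and without nlsYAP5SA mouse 2 (adjusted p = 0.0543 by edgeR). It held in 13 of the 20 other settings, and over all 20 the log2 fold change ran from -0.31 to -0.17.

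Sst, Npy and Vip did not pass. Sst (somatostatin, chromosome 16, 23889573 to 23890958) had 107, 100, 88.7, 103 and 93.9 CPM in controls, 91.8, 74.9, 95.2, 73.6 and 88.1 CPM in nlsYAP5SA mice and 108, 131 and 89.3 CPM in C57BL/6 mice. Its log2 fold change over control was -0.22 ± 0.08 (adjusted p = 0.113 by edgeR), with nlsYAP5SA mice 2, 4 and 5 below every control. Npy, the gene of neuropeptide Y, which many Sst cells also make (chromosome 6, 49822710 to 49829507), had 41, 39.5, 35.1, 38 and 33.7 CPM in controls. It had 34.6, 30.4, 34.7, 30.2 and 30 CPM in nlsYAP5SA mice and 40.9, 54.8 and 34.6 CPM in C57BL/6 mice. The log2 fold change was -0.23 ± 0.07 (adjusted p = 0.0611 by edgeR), and 5 of the 20 other settings called it, DESeq2 among them (adjusted p = 0.0239). Vip (vasoactive intestinal peptide, chromosome 10, 5639218 to 5647617) ranged from 11.6 to 18 CPM among controls, 12.3 to 18.1 CPM among nlsYAP5SA animals and 15.6 to 21.6 CPM in C57BL/6 mice. Its log2 fold change was 0.10 ± 0.13 (adjusted p = 0.716 by edgeR), and the groups overlapped almost entirely.

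**Figure D2:**
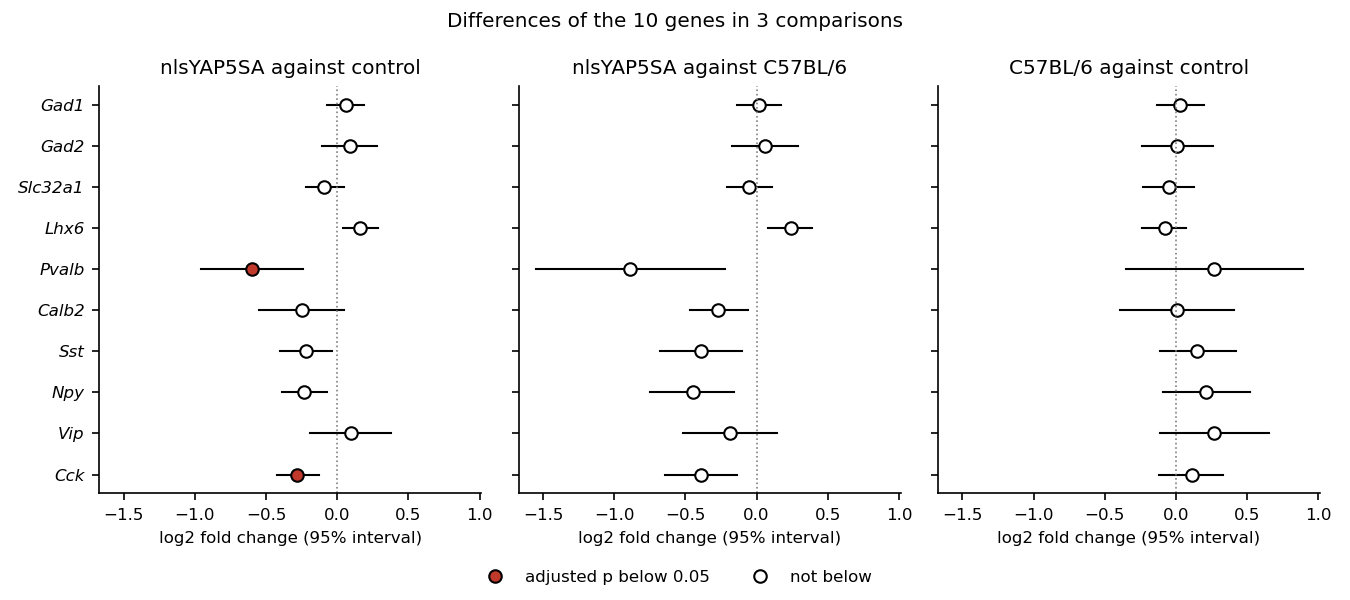
Log2 fold change of each gene (points) with its 95% interval (lines) in the 3 comparisons, from edgeR. Red points had an adjusted p below 0.05: Pvalb at -0.60 and Cck at -0.28 in nlsYAP5SA against control, and none of the 10 genes in the other 2 comparisons, which share mice with it.

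The comparison of C57BL/6 with control mice set wild-type animals against littermates that carry the transgene without Cre, and transgene and litter cannot be told apart in it. None of the 10 genes was called by edgeR or DESeq2, and none had an unadjusted p under 0.05 in edgeR. Of all 16546 genes 0.169% were called, and 625 had an unadjusted p under 0.05. The log2 differences of C57BL/6 over control ran from -0.08 ± 0.07 for Lhx6 to 0.27 ± 0.17 for Vip and 0.27 ± 0.28 for Pvalb. With 3 mice the Pvalb interval, -0.35 to 0.89, is too wide to say that the groups were alike. C57BL/6 mouse 2 decided much of it: this library had the highest value of all 13 for 5 of the 10 genes (Pvalb, Sst, Vip, Npy and Cck), and for 16.1% of all genes. Without it, the Pvalb difference turned to -0.24.

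When nlsYAP5SA was set against C57BL/6 in place of the littermates, edgeR called 0 of the 10 genes, with 6 at an unadjusted p under 0.05. Of all 16641 genes 3488 had an unadjusted p under 0.05, and 6.38% were called. That share rests on single mice: the 1061 calls behind it became 401, 581 and 1757 without C57BL/6 mouse 1, 2 or 3, and 636, 645 and 509 without nlsYAP5SA mouse 1, 2 or 5. DESeq2 called 3, namely Cck and Npy as lower and Lhx6 as higher. By edgeR the log2 difference was -0.89 ± 0.30 for Pvalb (adjusted p = 0.12), -0.45 ± 0.13 for Npy (adjusted p = 0.0769), -0.39 ± 0.11 for Cck (adjusted p = 0.0695) and -0.39 ± 0.13 for Sst (adjusted p = 0.12). Calb2 stood at -0.27 ± 0.09 (adjusted p = 0.133), and Gad1, Gad2 and Slc32a1 at 0.02, 0.06 and -0.05. Without C57BL/6 mouse 2 the Pvalb difference was -0.35, and without C57BL/6 mouse 3 edgeR called Cck, Npy and Sst.

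Levels can be ranked between genes only per length. The length used is the union of a gene's annotated exons, which can exceed that of the transcripts expressed, so the ranking is approximate. In controls, CPM per kb of exon was 137 ± 9.99 (SD, n = 5) for Sst, 80 ± 3.99 for Cck, 66.2 ± 5.34 for Npy and 53.5 ± 12.9 for Calb2. Gad2 (41.5 ± 4.89), Slc32a1 (36.1 ± 2.42) and Gad1 (27.4 ± 1.89) followed, and Pvalb (5.5 ± 0.925), Lhx6 (5.44 ± 0.27) and Vip (4.3 ± 0.822) came last. The ranges of neighbours overlapped for Npy and Calb2, Calb2 and Gad2, Gad2 and Slc32a1, Pvalb and Lhx6, and Lhx6 and Vip. In nlsYAP5SA mice the first 7 kept that order, and Pvalb came last at 3.63 ± 0.871 CPM per kb, overlapping with Vip at 4.6 ± 0.624. Per length, the transcripts of Sst, Cck and Npy thus exceeded those of Gad1 and Gad2 on average in all 3 groups at this age, and those of Vip did not.

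**Figure D3:**
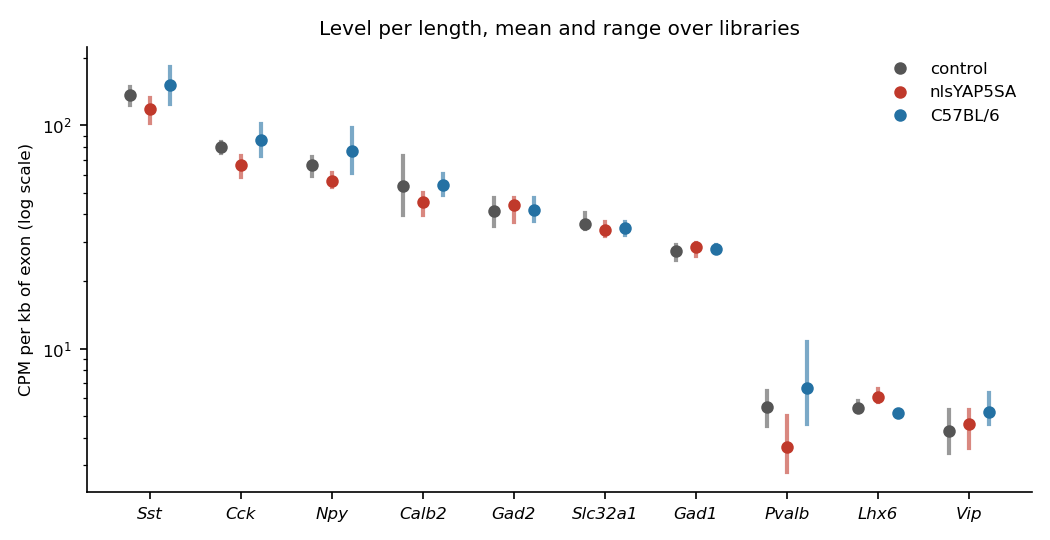
CPM per kb of exon (log axis) of the 10 genes in the order of the control means, with points for group means and bars from the lowest to the highest library. The order from Sst to Gad1 is shared by the 3 groups, and Pvalb falls from 5.5 in controls to 3.63 in nlsYAP5SA.

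Within each library, the 7 other genes were also set against the geometric mean of Gad1, Gad2 and Slc32a1. Of these, 0 separated the littermate groups. The log2 ratio of Cck lay between -0.87 and -0.59 in controls and between -1.16 and -0.86 in nlsYAP5SA mice, a difference of -0.30 between the means with the ranges just touching. For Pvalb the ranges were -5.13 to -4.70 and -5.88 to -5.09, a difference of -0.64. Sst, Npy and Calb2 differed by -0.24, -0.25 and -0.24, and Lhx6 and Vip by 0.14 and 0.08. The summed CPM of all 10 genes was 909 to 952 in controls, 851 to 963 in nlsYAP5SA and 939 to 1013 in C57BL/6 mice.

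A wider list of 59 genes of the same system was read in the same fit. All were tested and 7 were called in nlsYAP5SA against control, 6 of which are described here, and the median log2 fold change of the list was 0.02. That count is close to the share of all genes called, 10.8%, so it is no result about the list. The 17 interneuron transcription factor genes had a median of 0.09. Of 20 other interneuron class genes, 1 rose, Cplx3, the gene of a complexin of neurogliaform and subplate cells (0.51 ± 0.07, adjusted p = 4.5e-04 by edgeR). Cplx3 measured 13 to 15.9 CPM in controls, 20 to 22.3 CPM in nlsYAP5SA and 15.4 to 20.4 CPM in C57BL/6 mice, and it was called in all 20 other settings of the littermate comparison. Against C57BL/6 it was not called (0.21 ± 0.10, adjusted p = 0.239 by edgeR), and C57BL/6 stood above control by 0.29 ± 0.10 (unadjusted p = 0.0206 by edgeR, not called after adjustment).

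Of 12 genes for receptors of the members' peptides, 0 were called higher and 4 lower in nlsYAP5SA against control, with a median of -0.14, where 7.36% of all genes were called higher and 3.44% lower. The receptors for somatostatin were 3 of these: Sstr2, at 24.5 to 25.8 CPM in controls, dropped to between 17.6 and 21.2 CPM in the mutant hemispheres (-0.38 ± 0.06, adjusted p = 0.00135 by edgeR). Sstr3 fell by 0.34 ± 0.10 on the log2 scale (adjusted p = 0.0394 by edgeR) and Sstr1 by 0.34 ± 0.10 (adjusted p = 0.0391 by edgeR). Sstr1 was as low in C57BL/6 mice, at a mean of 17.4 CPM in both groups against 22.1 CPM in controls. It differed by -0.02 ± 0.14 between nlsYAP5SA and C57BL/6 (adjusted p = 0.962 by edgeR) and by -0.34 ± 0.14 between C57BL/6 and control (unadjusted p = 0.0359 by edgeR, not called after adjustment). Sstr2 and Sstr3 were also lower against C57BL/6, with log2 differences of -0.34 ± 0.08 (adjusted p = 0.0305 by edgeR) and -0.50 ± 0.10 (adjusted p = 0.0193 by edgeR). Sstr4, at 0.02 ± 0.15, did not pass. Npy2r, a receptor for neuropeptide Y, fell by 0.40 ± 0.11 (adjusted p = 0.0415 by edgeR), and against C57BL/6 stood at -0.38 ± 0.15, which did not pass (adjusted p = 0.191 by edgeR). These receptors sit on many kinds of neuron, pyramidal cells included. Of 10 genes for GABA transport, breakdown and the inhibitory synapse, 1 fell, the astrocytic GABA transporter gene Slc6a11 (-0.23 ± 0.06, adjusted p = 0.035 by edgeR), and the median was -0.01. Against C57BL/6 Slc6a11 stood at -0.26 ± 0.08 and did not pass (adjusted p = 0.0772 by edgeR). Sstr2 held in 19 of the 20 other settings, whereas Sstr1, Sstr3, Npy2r and Slc6a11 held in 8 or 9. Leaving out single mice, Sstr1 held without control 1, control 5 or nlsYAP5SA mouse 4, Sstr3 without control 1, 2 or 3 or nlsYAP5SA mouse 3, Npy2r without control 1 or nlsYAP5SA mouse 2, and Slc6a11 without control 4 or nlsYAP5SA mouse 2. Each was lost without any other mouse of these groups, with adjusted p-values of 0.0514 to 0.107 by edgeR.

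**Figure D4:**
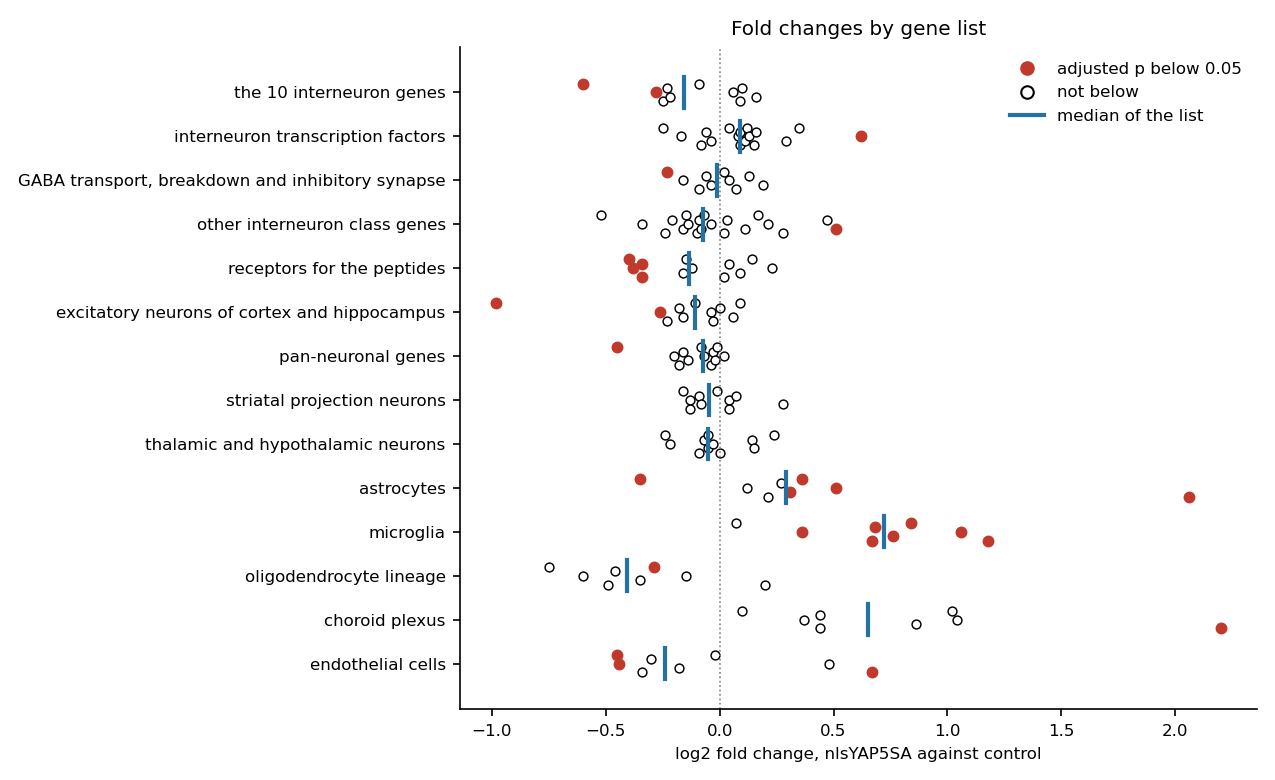
Log2 fold change of nlsYAP5SA over control (horizontal axis) for each gene of each list, with the list's median as a blue line and genes at an adjusted p below 0.05 in red. The interneuron lists centre between -0.15 and 0.09, while the microglial list centres at 0.72.

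Other cells of the hemisphere moved in the same comparison. Yap1 stood at 20.7 ± 0.963 CPM in controls and 24.2 ± 1.52 CPM in nlsYAP5SA (SD, n = 5 each), higher in every nlsYAP5SA mouse (adjusted p = 0.0361 by edgeR). Of 11 genes of excitatory neurons 2 fell and 0 rose, with a median of -0.11. The larger fall was that of Neurod6 (-0.98 ± 0.09, adjusted p = 2.7e-05 by edgeR), the gene that carries the Cre allele. The nlsYAP5SA mice have that allele and the controls do not, so this fall cannot be told apart from the allele itself. The other was Cux2 (-0.26 ± 0.06, adjusted p = 0.0126 by edgeR). Neurod1 was the highest of that list at 0.09. Of 12 pan-neuronal genes 1 fell, Nefl (-0.45), with a median of -0.08, a highest value of 0.02 for Map2, and a summed level of 8405 to 8817 CPM in controls and 7867 to 8358 CPM in nlsYAP5SA. Scaled on these genes, all fold changes shift upward (the median of all genes is then 0.10), and neither Pvalb (-0.49) nor Cck (-0.17) was called. Of striatal and of thalamic and hypothalamic neuron genes, edgeR called 0 of 10 and 0 of 11, with 1 of each list at an unadjusted p under 0.05, DESeq2 called 0 and 1, and their medians were -0.04 and -0.05. Agrp did not pass edgeR's filter on low counts. The striatal values ran from -0.16 (Adora2a) to 0.28 (Ppp1r1b) and the thalamic and hypothalamic ones from -0.24 (Slc17a6) to 0.24 (Oxt).

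Among glial and other lists of 8 genes each, 4 astrocyte genes rose and 1 fell (median 0.29, from -0.35 for S100b to 2.06 for Gfap). Of the microglial genes 7 rose, with a summed level between 300 and 375 CPM in control and between 443 and 576 CPM in nlsYAP5SA hemispheres. Their median was 0.72, from 0.07 for P2ry12 to 1.18 for C1qa. Of the oligodendrocyte lineage 1 fell (median -0.40, from -0.75 for Mog, which did not pass, to 0.20 for Pdgfra). Of the choroid plexus 1 rose, Folr1 at 2.20 (median 0.65, lowest 0.10 for Otx2), with a summed level of 14.6 to 240 CPM in controls and 16.7 to 317 CPM in nlsYAP5SA. Of endothelial genes 1 rose and 2 fell (median -0.24, from -0.45 for Cdh5 to 0.67 for Slc2a1). None of the markers was at 0 in every library. The part of these cells in the Pvalb and Cck values was not tested.

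The libraries also differed in Y-linked transcripts, which all 5 controls, 2 of 5 nlsYAP5SA mice and 2 of 3 C57BL/6 mice carried. Their summed level was 90.9 to 129 CPM in controls and 130 and 135 CPM in nlsYAP5SA mice 3 and 4, but at most 0.0941 CPM in nlsYAP5SA mice 1, 2 and 5 and 0 in C57BL/6 mouse 2. Xist had the highest log2 fold change of all genes in nlsYAP5SA against control, at 9.74. By these transcripts all 5 controls were male and nlsYAP5SA mice 1, 2 and 5 female. Sex and genotype are thus partly mixed in the littermate comparison. With the Y-linked level as a covariate Pvalb stood at -0.76 (adjusted p = 0.111 by edgeR) and Cck at -0.28 (adjusted p = 0.16 by edgeR), and 0 of the 10 genes was called, with 2 at an unadjusted p under 0.05. In the libraries with Y-linked transcripts alone, a setting chosen after seeing the data, Pvalb stood at -0.78 and Cck at -0.29 with 5 controls against 2 nlsYAP5SA mice. Neither gene was called with so few mice. The cause of the lost calls was not tested.

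**Figure D5:**
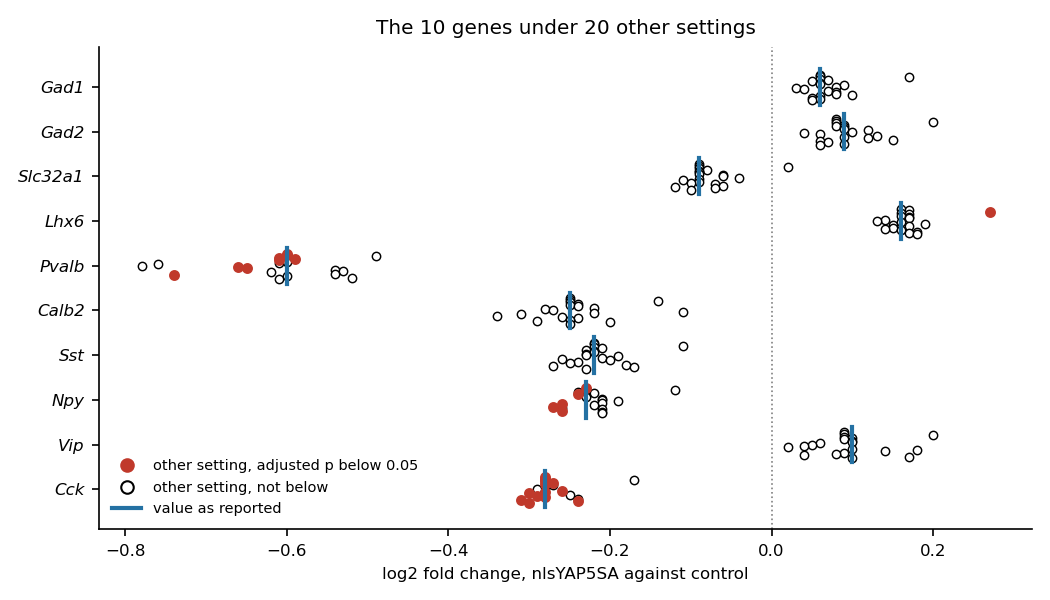
Log2 fold change of nlsYAP5SA over control for the 10 genes as reported (blue lines) and under 20 other settings (points, red where the adjusted p was below 0.05). Pvalb stays between -0.78 and -0.49 with 8 red points and Cck between -0.31 and -0.17 with 13, while Gad1, Gad2, Slc32a1, Sst, Vip and Calb2 have none.

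Genes outside the list with the most similar profile were found over the 13 libraries by Pearson's correlation of log2(CPM + 0.5) with the 13415 candidates averaging 50 or more counts. These libraries share the group differences, so each r is a description. The profiles nearest to Pvalb were those of Car7 (r = 0.955, rho = 0.923), Cabp7 (r = 0.942, rho = 0.896) and Nipal4 (r = 0.941, rho = 0.885). Those nearest to Cck were Sult4a1 (r = 0.966, rho = 0.94), Hpca (r = 0.966, rho = 0.962) and the predicted gene Gm10053 (r = 0.963, rho = 0.94). Gad1 was followed most closely by Rfx5 (r = 0.919, rho = 0.896), Spg20 (r = 0.918, rho = 0.923) and Aftph (r = 0.891, rho = 0.868), and Gad2 by Luc7l2 (r = 0.945, rho = 0.973), Tmtc1 (r = 0.941, rho = 0.94) and Asxl2 (r = 0.938, rho = 0.929).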

How the data were processed

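RNA from the right hemisphere of 13 mice was sequenced from libraries made with the KAPA mRNA HyperPrep kit. The authors trimmed reads with CutAdapt 1.5, aligned them with STAR to GRCm38 (Ensembl) within RSEM 1.3.0 and deposited RSEM's estimated counts per gene; 12.4 to 13.3% of values were not whole. The strand setting is not given in the sources used here. The annotated genes that overlap these 10 on either strand had mean levels of at most 0.133 CPM. Symbols (48349 of 48795 identifiers) and positions came from GENCODE M21, and exon length is the union of a gene's exons there. Genes without a symbol, 446, stayed in the fit and held 0.0649% of counts.

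Estimated counts were rounded and tested with edgeR 4.0.16 (R 4.3.3): TMM scaling, filterByExpr (at least 10 counts), glmQLFit and glmQLFTest, two-sided, with only the compared groups in a fit and no covariate, and Benjamini-Hochberg adjustment over all genes tested, called at 0.05. CPM was computed over all 13 libraries with TMM. The authors had used DESeq2 (here 1.42.0), tried as an alternative. The fits were tested on simulated counts with known fold changes. Depth sets the counting error only, and the test rates a group difference against the spread between mice. No pair of replicate libraries differed by less than sampling noise (lowest chi-square per degree of freedom 6.39 over 23 pairs). All 10 genes are named, as is every called gene of the wider list but 1, which is not reported here, the 3 closest profiles of Gad1, Gad2 and each called gene, and the extremes of each marker list. The genes and lists were chosen with earlier results of these data known. Alternatives were other scalings, filters, tests, sample sets and covariates, and leaving out each mouse.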

Additional observations from a re-analysis of the deposited data

Results flagged for a closer look

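In 1 of the 34 sets of 4 to 10 values examined for a library far from the others, control replicate 1 stood apart: it had 113 CPM of Slc32a1, against 95.8 to 99 CPM in the other 4 controls. Chance flags about 1 in 20 such sets. Without this mouse Slc32a1 remained uncalled in nlsYAP5SA against control.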

How the results depend on the processing

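In nlsYAP5SA against control, 2 of the 10 genes were called by edgeR as reported. The count was 1 when libraries were scaled on pan-neuronal genes (Lhx6) and 0 with all 13 mice in a single fit, with the replicate block, with the Y-linked covariate and in the libraries with Y-linked transcripts alone. With those 4 settings 4, 5, 2 and 2 of the genes had an unadjusted p under 0.05. Leaving out each mouse gave 0 to 2 calls, 0 without control 4 (6 at an unadjusted p under 0.05) and 1 without nlsYAP5SA mouse 1, 2, 4 or 5. The cause of these losses was not tested. Of all genes, 1200 were called higher and 561 lower (68.1% higher), against 1953 and 141 (93.3%) with pan-neuronal scaling, 936 and 303 with the replicate block, 476 and 66 (87.8%) with the Y-linked covariate and 308 and 26 (92.2%) in the libraries with Y-linked transcripts alone. DESeq2 gave 1385 and 864, and the lower calls were 315 without control 4 and 351, 340 and 296 without nlsYAP5SA mouse 1, 2 or 5. In nlsYAP5SA against C57BL/6 all calls numbered 1061 (65.2% higher), against 2176 (95.1%) with pan-neuronal scaling, 47 in the libraries with Y-linked transcripts alone and 26 with the replicate block. The correlations of same-numbered nlsYAP5SA and control mice were 0.33, -0.19, -0.33, -0.09 and 0.13, so the replicate numbers did not pair the mice, and not every mouse correlated best with its own number. Of the wider list 7 were called as reported, 3 with the Y-linked covariate, 1 in the libraries with Y-linked transcripts alone (Cplx3), and 3 to 7 with each mouse left out. In nlsYAP5SA against C57BL/6 0 genes were called as reported, 1 with pan-neuronal scaling (Lhx6), 3 with DESeq2, 3 with all 13 mice in a single fit, 1 with the Y-linked covariate (Pvalb), and 0 to 3 with each mouse left out. In C57BL/6 against control 0 genes were called under all 18 other settings, DESeq2 included, while the calls among all genes, 28 as reported, ran from 15 with the replicate block to 59 with DESeq2. In that comparison the libraries with Y-linked transcripts alone are those left without C57BL/6 mouse 2, so these settings are the same fit. Relative to the GABA genes 0 of the 7 genes separated the littermates, against 1 relative to pan-neuronal genes (Lhx6, above), 1 relative to Slc32a1 alone (Cck, below), and 0 to 2 with each mouse left out (Pvalb without control 1 or nlsYAP5SA mouse 2, Cck without control 3, Npy and Cck without nlsYAP5SA mouse 1).

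Some uncalled values turned sign. With pan-neuronal scaling, Slc32a1 was 0.02 in nlsYAP5SA against control and 0.13 in nlsYAP5SA against C57BL/6, and in C57BL/6 against control Gad1 was -0.04, Gad2 -0.05 and Calb2 -0.07. In that last comparison, library size alone gave -0.01 for Gad2 and -0.02 for Calb2, no filter -0.01 and the replicate block -0.11 for Calb2. The Y-linked covariate gave -0.20 for Pvalb, -0.02 for Cck and -0.09 for Calb2. The libraries with Y-linked transcripts alone, the same fit as without C57BL/6 mouse 2, gave -0.24, -0.02 and -0.08. With each mouse left out, C57BL/6 against control ran from -0.02 to 0.06 for Gad1, -0.10 to 0.09 for Gad2, -0.24 to 0.47 for Pvalb, -0.02 to 0.20 for Cck and -0.09 to 0.14 for Calb2. In nlsYAP5SA against C57BL/6 it ran from -0.01 to 0.05 for Gad1, -0.00 to 0.16 for Gad2 and -0.10 to 0.00 for Slc32a1.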
